A study of Mus musculus with 6 samples.

Results

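The 48 mitosis and cytokinesis genes described here encode the cyclins, kinases, checkpoint proteins, kinetochore parts, motors and cytokinesis factors that carry a cell through division. They were chosen by name, for their known roles and with earlier results of these data known, from the 32903 gene symbols of the deposited table. RNA with poly(A) tails was sequenced from MuTuDC1940, a mouse dendritic cell line, after 18 hours with 5 µg/ml poly(I:C), a synthetic double-stranded RNA that mimics viral RNA, or after the same time without it. Each group of the series holds 3 samples. The table has 5 sample names for 6 value columns, so the group of 2 columns is open, and the comparison rests on 2 libraries per group: those headed PolyIC01 and PolyIC02 (poly(I:C)), and those headed NT01 and NT02 (untreated).

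MuTuDC lines are known to come from tumours of transgenic mice that express SV40 large T antigen in CD11c-positive cells, and all libraries are of this 1 line. Large T antigen is known to bind the RB family and p53. The untreated cells are thus those of a tumour-derived line, and the part of large T antigen in the values below was not tested. All 12 markers of type 1 conventional dendritic cells that were looked up reached the expression limit used here, a mean of 0.5 TPM (a level per transcript length, scaled so that every library has the same total), among them Irf8 at 2558 and 2639 TPM with poly(I:C) and 2482 and 2477 TPM without. Of the 12, 5 fell and 6 rose. The largest falls were in Cd24a, to 37.3% of untreated, Flt3, to 55.8%, and Tlr3, to 56.8%, while Xcr1 was at 172% of untreated. The count that rose was 3 without PolyIC01 and 3 without PolyIC02. Itgae was the weakest of them, at 0.597 and 0.589 TPM with poly(I:C) and 0.918 and 0.490 TPM without. Of 10 macrophage and monocyte markers 8 could be tested, 7 rose and 0 fell, beside 28.4% and 32.4% of all tested genes. The sum over the list was 537 and 548 TPM with poly(I:C), against 113 and 109 TPM without. Most of it came from C1qa, C1qb, C1qc and Ms4a7, with C1qa at 168 and 174 TPM with poly(I:C) and 37.2 and 36.8 TPM without. Csf1r, which could not be tested, was listed at 0 in both poly(I:C) libraries. The T cell genes Cd3e and Cd3g were listed at 0 in all 4 libraries, while the 1 T cell gene that could be tested, Cd3d, rose at a low level (1.59 and 1.47 TPM with poly(I:C), 1.01 and 0.678 TPM without), a call lost without PolyIC01 (adjusted p = 0.0780 in limma) and without NT02 (adjusted p = 0.0586). The 1 B cell gene tested, Ms4a1, also rose (6.74 and 5.76 TPM with poly(I:C), 3.18 and 3.58 TPM without). The part of these marker genes in the results below was not tested.

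In a dividing cell, cyclin A and cyclin B bind the kinase CDK1 and drive entry into mitosis. Kinetochores then attach chromosomes to spindle microtubules, the spindle checkpoint holds back the anaphase-promoting complex (APC/C) until attachment is complete, and the APC/C with CDC20 marks securin and cyclin B for destruction. Separase, freed from securin, cuts cohesin, and the central spindle directs cytokinesis. Transcription of many of these genes is known to peak in G2 and mitosis, and many of their promoters carry a cell cycle genes homology region (CHR) near the start site and CCAAT boxes before it. The MuvB core binds the CHR, as the repressive DREAM complex in resting cells and with B-MYB and FOXM1 in dividing ones, while NF-Y binds the CCAAT box.

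Promoter stretches of 5 of the genes are shown because the shared feature that the choice of genes did not use lies in them. Each is the 180 bases directly before the RefSeq start (GRCm38.p6), read 5′ to 3′ on the strand of the gene, with CHR matches (TTTGAA and the variant form TTCGAA) and CCAAT boxes on either strand in capitals. They are Ccnb2 (chr9:70421555-70421734, minus strand), Cdc20 (chr4:118437344-118437523, minus strand), Cdk1 (chr10:69352913-69353092, minus strand), Kif11 (chr19:37376202-37376381, plus strand) and Birc5 (chr11:117849057-117849236, plus strand).
Ccnb2: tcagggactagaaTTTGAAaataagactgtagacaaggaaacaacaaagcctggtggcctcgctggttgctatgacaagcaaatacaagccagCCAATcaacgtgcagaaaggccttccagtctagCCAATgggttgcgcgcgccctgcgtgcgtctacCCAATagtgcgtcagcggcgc
Cdc20: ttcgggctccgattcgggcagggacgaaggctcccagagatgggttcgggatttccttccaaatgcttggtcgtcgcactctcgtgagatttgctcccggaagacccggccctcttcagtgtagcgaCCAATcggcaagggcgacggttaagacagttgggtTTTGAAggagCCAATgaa
Cdk1: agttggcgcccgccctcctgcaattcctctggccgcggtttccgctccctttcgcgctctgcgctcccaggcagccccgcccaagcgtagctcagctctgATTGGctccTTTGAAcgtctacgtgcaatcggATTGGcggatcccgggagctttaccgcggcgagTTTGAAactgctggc
Kif11: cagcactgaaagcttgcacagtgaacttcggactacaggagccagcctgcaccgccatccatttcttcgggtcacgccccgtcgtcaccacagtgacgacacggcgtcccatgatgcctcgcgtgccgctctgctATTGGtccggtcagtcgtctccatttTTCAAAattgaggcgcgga
Birc5: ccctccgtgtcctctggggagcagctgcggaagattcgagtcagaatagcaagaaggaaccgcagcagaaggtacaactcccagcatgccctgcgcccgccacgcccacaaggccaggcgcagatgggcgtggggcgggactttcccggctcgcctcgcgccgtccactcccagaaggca
Ccnb2, Cdc20, Cdk1 and Kif11 hold 1, 1, 2 and 1 CHR matches and 3, 2, 2 and 1 CCAAT matches in these stretches. The stretch of Birc5 holds neither, which says only that these letters are not in this window. In Ccnb2 the CHR match shown is far from the start, with its centre at position -164 relative to it. A further Ccnb2 CHR match, with its centre at position 7, lies after the start and so outside the stretch. GENCODE M21 starts Cdc20 and Cdk1 slightly earlier than RefSeq, so the last 9 and 26 bases of their stretches are exonic there.

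A window from 250 bases before to 50 bases after the start was found for 41 of the 48 genes. Ccna2, Spc24, Incenp, Cdc25c, Aurkb, Kif20a and Tpx2 had none. TTTGAA was present on either strand in 30 of the 41 genes (73.2%), against 20.2% of all 27025 genes with a window, and TTCGAA in 4 of 41 (9.76%), against 1.80%. One or both forms stood in 32 of the 41 genes (78.0%), against 21.7% of all genes, and CCAAT in 30 (73.2%), against 41.1%. A CHR form and CCAAT occurred together in 27 of the 41 genes (65.9%), against 9.65% of all genes. The CHR matches lay close to the start: 30 of the 41 genes (73.2%) had one centred within 60 bases of it, against 6.05% of all genes. In 22 of the 41 genes a CHR match reached the start or lay after it, and 13 had one before it. Stretches that end at the start, like those printed above, thus miss many of the matches near it. CCAAT matches stood further out, with a median centre 55.5 bases before the start. Of 99 other mitotic genes with a window 42 (42.4%) held a CHR form, as did 6 of 30 G1/S and DNA replication genes (20.0%), near the share of all genes, whereas CCAAT was in 19 of those 30 (63.3%). Of 6 other strings searched on both strands, the E2F-type TTTGGCGC was in 2 of the 41 genes (4.88%, against 0.585% of all genes), TTTCGCGC in 1 (2.44%, against 0.374%) and GGCGGGAA in 0 (against 2.52%). The forkhead-type TGTTTAC was in 2 (4.88%, against 4.05%), TTGGCTC in 5 (12.2%, against 6.84%) and TCAAATC in 2 (4.88%, against 3.68%). TTGGCTC can share letters with a CCAAT match on the other strand, and TCAAATC with a CHR match on the other strand. A match describes letters and is not evidence of binding.

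**Figure D1:**
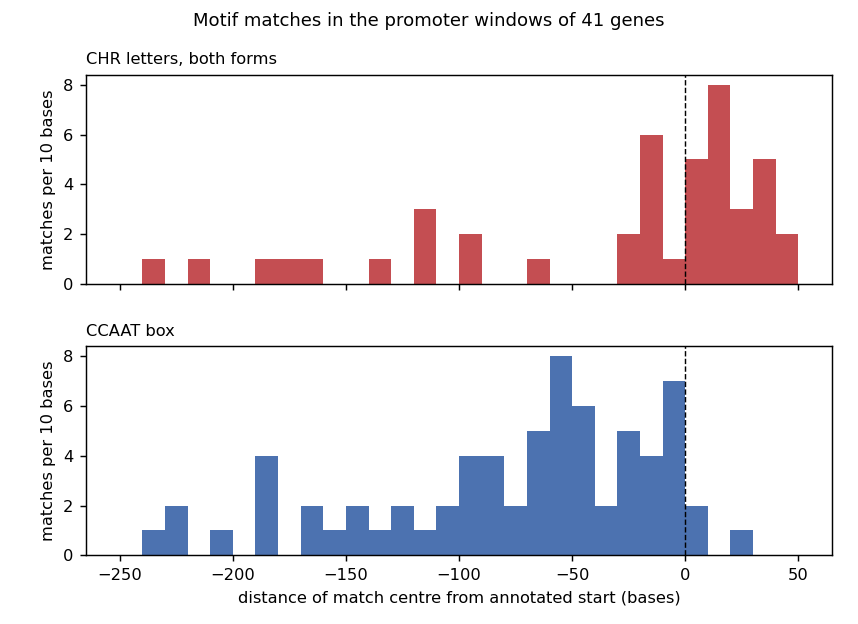
Number of CHR matches (either form, top) and CCAAT matches (bottom) per 10 bases, by the distance of the match centre from the annotated start, in the promoter windows of 41 mitosis and cytokinesis genes. The 44 CHR matches gather around the start, where 32 lie within 60 bases, and the 69 CCAAT matches lie mostly before it.

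Nearly the whole programme was lower with poly(I:C). Of the 48 genes 47 fell and 1, Pttg1, rose (limma, adjusted p under 0.05, Benjamini-Hochberg over 12520 tested genes), where 32.4% of all tested genes fell and 28.4% rose. On the log2(TPM + 1) scale 31 of the 48 were lower by 2-fold or more, against 2.76% of all tested genes, and 0 were higher by as much, against 5.69%. Because the 48 genes were chosen with earlier results of these data known, no test of the set was run. The median log2 fold change was -1.17, beside -0.02 for all tested genes, and the quartiles of the members were -1.36 and -0.94. Both poly(I:C) libraries were below both untreated libraries for the same 47 genes, which 42.4% of all tested genes also were, and above them for Pttg1 (38.9% of all tested genes). All 48 were tested, and each had a mean above 0.5 TPM in either group, so no gene entered through 1 group alone.

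Summed over the 48 genes, the RNA of the programme made up 1874 and 1829 TPM with poly(I:C) and 4113 and 4038 TPM without, or 0.187% and 0.183% of the library with poly(I:C) and 0.411% and 0.404% without. The groups were far apart beside the gap within each: the mean sum was 1851 ± 32.1 TPM with poly(I:C) and 4076 ± 52.4 TPM without (SD, n = 2 libraries each), a fall to 45.4% of the untreated level. In bulk RNA, fewer cells in division and less of these RNAs per dividing cell cannot be told apart. Whether the samples are separate cultures is not stated in the labels, so a p-value here reflects no more than library-to-library spread, possibly technical. With 2 libraries per group the smallest two-sided exact permutation p is 0.333, so none is given for single genes.

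**Figure D2:**
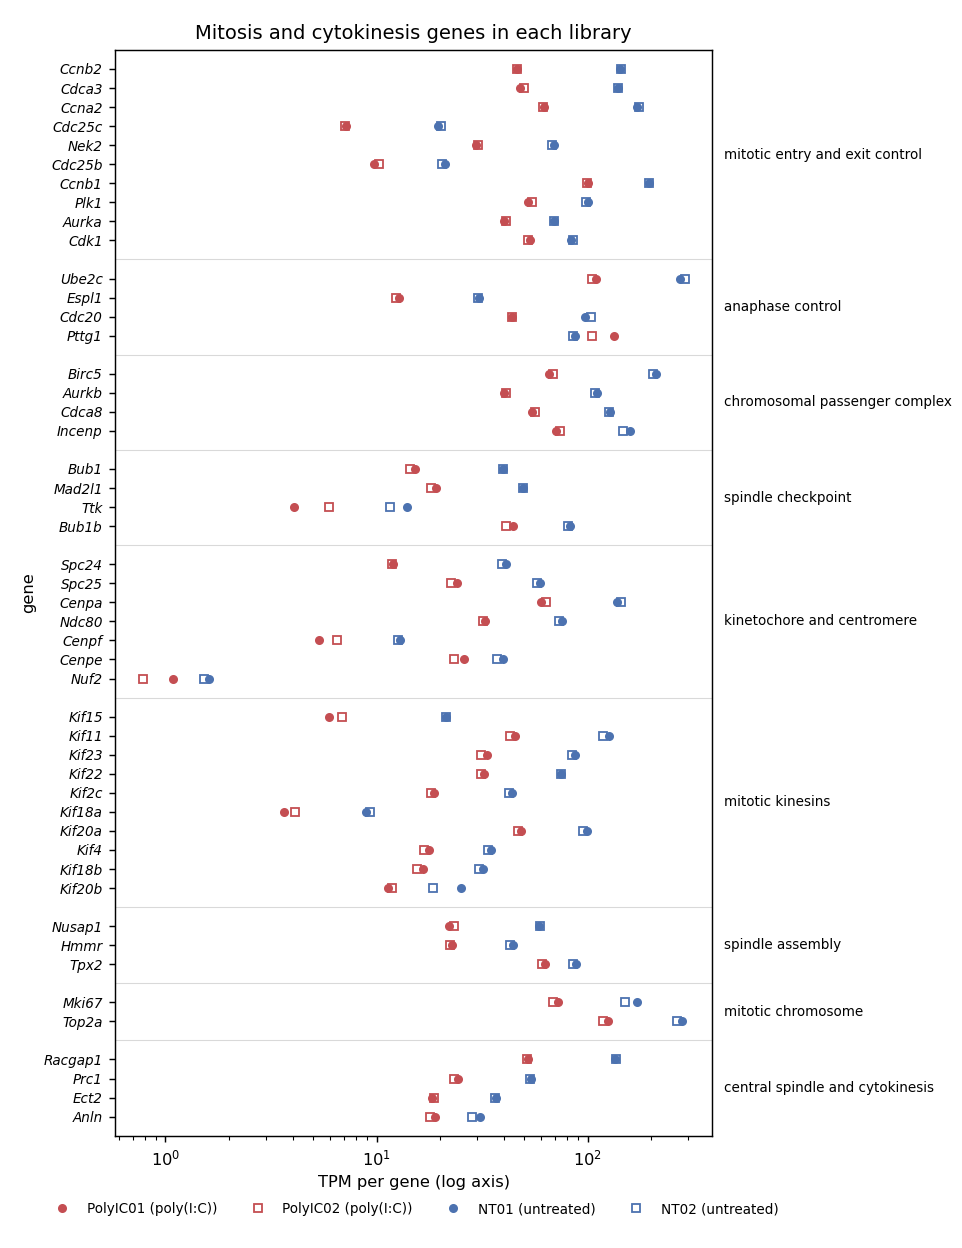
TPM of each of the 48 genes (log axis) in the 2 poly(I:C) libraries (red) and the 2 untreated libraries (blue), grouped by role and ordered by fold change within a role. Red lies left of blue for 47 genes, and Pttg1 is the exception.

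Control of mitotic entry and exit. All 10 genes of this group fell, with a median log2 fold change of -1.08. Ccnb1 encodes the main mitotic cyclin and was the most abundant of them (chromosome 13, 100778739 to 100786486, GRCm38.p6). It was at 100.4 and 99.6 TPM in the poly(I:C) libraries, against 196 and 196 TPM in the untreated ones, so the groups did not overlap and the level was 51.1% of untreated (log2 fold change -0.96 with SE 0.026; limma adjusted p = 4.62e-06). Its sister Ccnb2, whose product sits at the Golgi, fell furthest of the group (chromosome 9, 70407689 to 70421554). Ccnb2 was at 46.0 and 46.3 TPM with poly(I:C), against 142 and 143 TPM without, which is 32.3% of untreated (limma log2 fold change -1.61, SE 0.030, adjusted p 1.65e-06). The 95% intervals of these fold changes, -1.68 to -1.54 for Ccnb2 and -1.03 to -0.90 for Ccnb1, did not overlap. Ccna2, the S phase and G2 cyclin, was closer to Ccnb2, at 61.8 and 61.5 TPM with poly(I:C) and 172 and 176 TPM without (log2 fold change -1.48).

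Cdk1, Aurka and Plk1 had the smallest falls of the group. Cdk1, the catalytic partner of these cyclins, was at 53.5 and 52.1 TPM with poly(I:C), against 83.5 and 84.9 TPM without, so 62.7% of its level was left (log2 fold change -0.66). The spindle kinase genes Aurka (-0.75) and Plk1 (-0.88) stood next to it, and their ranges did not overlap between groups either. The CDK1-activating phosphatase gene Cdc25b (-0.99) fell by about the same as Ccnb1, while Cdc25c fell to 7.19 and 7.07 TPM with poly(I:C), against 19.6 and 20.2 TPM without (log2 fold change -1.36). Nek2, a kinase gene of centrosome separation (-1.17), and Cdca3, which encodes a factor that triggers WEE1 destruction (-1.49), complete the group. These differences between genes were not themselves tested.

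Anaphase control. Of the 4 genes in this group 3 fell and 1 rose. Ube2c encodes the APC/C ubiquitin-conjugating enzyme and had the highest untreated level of all 48 genes (chromosome 2, 164769929 to 164772902). It was at 109 and 105 TPM with poly(I:C), against 274 and 288 TPM without (log2 fold change -1.38 with SE 0.038; limma adjusted p = 4.82e-06). Cdc20, the APC/C activator, was at 43.9 and 43.6 TPM with poly(I:C) and at 97.5 and 103 TPM without (log2 fold change -1.18). Espl1, which encodes separase, was at 12.8 and 12.4 TPM with poly(I:C) and at 30.7 and 30.1 TPM without (log2 fold change -1.21). The groups did not overlap for any of the 3.

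Pttg1 encodes securin, the inhibitor that holds separase until anaphase, and it went the other way (chromosome 11, 43420244 to 43427463). It was at 134 and 105 TPM with poly(I:C), against 86.8 and 85.6 TPM without, 139% of the untreated mean (log2 fold change 0.46, SE 0.123, 95% interval 0.12 to 0.80, adjusted p = 0.0354 in limma). Both poly(I:C) libraries lay above both untreated ones, with PolyIC01 far above PolyIC02. The call was lost without NT01 (adjusted p = 0.289) and without NT02 (adjusted p = 0.305), and the log2 fold change was 0.29 without PolyIC01. Its value divides over 3 RefSeq transcripts. A predicted one was at 82.1 and 54.1 TPM with poly(I:C) and 52.6 and 57.4 TPM without, so its groups overlapped. The main curated one was at 45.3 and 46.2 TPM with poly(I:C) and 30.4 and 25.1 TPM without, and the minor curated one at 6.33 and 5.08 TPM with poly(I:C) and 3.92 and 3.22 TPM without, with no overlap in either. From curated transcripts alone the log2 fold change was 0.71 (adjusted p = 0.00364 in limma). The promoter window of Pttg1 held neither a CHR form nor CCAAT, which was also so for 5 of the genes that fell: Birc5, Mad2l1, Nuf2, Kif18a and Nusap1.

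**Figure D3:**
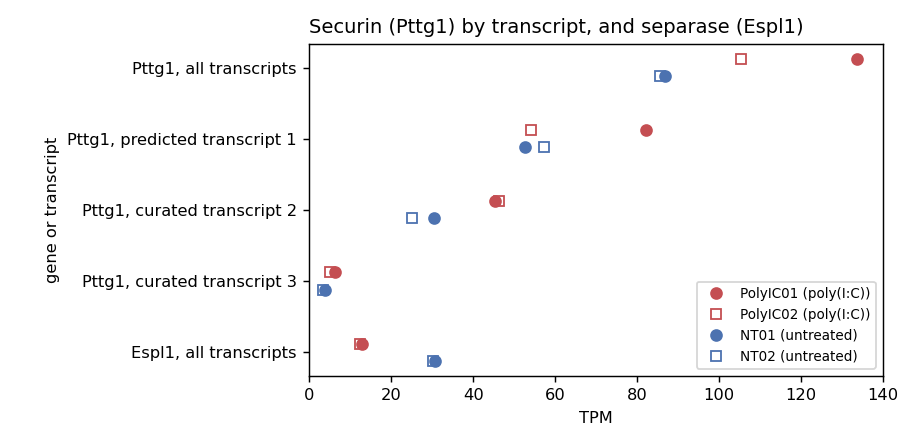
TPM of Pttg1 (securin) summed and by transcript, and of Espl1 (separase) for comparison, in the 2 poly(I:C) libraries (red) and the 2 untreated libraries (blue). The poly(I:C) libraries are above the untreated ones for summed Pttg1 and both curated transcripts and below them for Espl1, and the distance between PolyIC01 and PolyIC02 comes from the predicted transcript.

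Chromosomal passenger complex. This complex corrects faulty attachments and marks the cleavage site, and all 4 of its subunit genes fell by 2-fold or more on that scale. Birc5, which encodes survivin, fell furthest (chromosome 11, 117849237 to 117855743). It was at 65.9 and 68.5 TPM with poly(I:C), against 210 and 204 TPM without, 32.5% of untreated (limma log2 fold change -1.61, SE 0.034, adjusted p 2.29e-06). The kinase gene Aurkb was at 40.1 and 40.9 TPM with poly(I:C) and at 110.3 and 108 TPM without (log2 fold change -1.41). The borealin gene Cdca8 (-1.18) and the scaffold gene Incenp (-1.06) fell less, and the 95% interval of Incenp (-1.18 to -0.95) did not reach that of Birc5 (-1.69 to -1.52).

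Spindle checkpoint. All 4 checkpoint genes fell. Bub1b, which encodes the BUBR1 part of the checkpoint complex, was the most abundant, at 44.3 and 41.2 TPM with poly(I:C) and 82.7 and 80.6 TPM without (log2 fold change -0.92 with SE 0.046; limma adjusted p = 3.37e-05). Bub1, the kinetochore kinase gene, fell furthest, at 15.3 and 14.4 TPM with poly(I:C) and 39.8 and 39.8 TPM without (log2 fold change -1.37, SE 0.050, adjusted p = 1.21e-05). Mad2l1 (-1.36), which encodes the APC/C inhibitor MAD2, was close to Bub1. Ttk, the kinase gene at the head of the checkpoint (also called Mps1), was the noisiest of them, at 4.07 and 5.97 TPM with poly(I:C) and 13.9 and 11.6 TPM without (log2 fold change -1.21, SE 0.175, adjusted p = 0.00278), with no overlap between groups.

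Kinetochore and centromere. All 7 genes fell, over a wide span of sizes. Cenpa, the centromeric histone H3 variant, was the most abundant, at 59.9 and 63.6 TPM with poly(I:C) and 137 and 144 TPM without (limma log2 fold change -1.17, SE 0.043, adjusted p 1.19e-05). The 4 subunits of the NDC80 complex, which grips microtubules, differed most. Spc24 had the deepest fall of all 48 genes and the 35th deepest of all tested genes, at 12.0 and 11.9 TPM with poly(I:C) and 41.2 and 39.3 TPM without (chromosome 9, 21755434 to 21760446, log2 fold change -1.67, SE 0.050, adjusted p = 7.07e-06). Its dimer partner Spc25 (-1.30) and the subunit Ndc80 (-1.17) fell as well, whereas Nuf2, the dimer partner of Ndc80, was low throughout. Nuf2 was at 1.08 and 0.779 TPM with poly(I:C), against 1.61 and 1.52 TPM without (log2 fold change -0.41, SE 0.113, adjusted p = 0.0228). Ndc80 itself was at 32.6 and 32.1 TPM with poly(I:C) and 75.3 and 72.8 TPM without, so the genes of these 2 partners differed greatly in level per length in every library. The Nuf2 call was lost without PolyIC02 (adjusted p = 0.130) and without NT01 (adjusted p = 0.0530), and its log2 fold change was -0.71 with a pseudocount of 0.1. Cenpe, a motor of chromosome alignment (-0.63), and Cenpf, a large outer kinetochore protein gene (-0.99), fell less than the median of the 48.

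Mitotic kinesins. All 10 motor genes fell, 7 of them by 2-fold or more, and their median log2 fold change was -1.12. Kif11, whose motor pushes the spindle poles apart and whose promoter is shown above, was the most abundant, at 45.2 and 42.7 TPM with poly(I:C) and 126 and 118 TPM without (log2 fold change -1.45 with SE 0.047; limma adjusted p = 8.62e-06). Kif15, a motor able to share that task, fell furthest, at 5.98 and 6.87 TPM with poly(I:C) and 21.3 and 21.4 TPM without (log2 fold change -1.59, SE 0.077, adjusted p = 2.95e-05). Thus both bipolarity motors stood at the deep end of the group, beside Kif23 (-1.38), a central spindle motor gene. The chromokinesin genes Kif22 (-1.22) and Kif4 (-0.96), the depolymerase gene Kif2c (-1.18), the microtubule length regulators Kif18a (-1.06) and Kif18b (-0.92) and the cytokinesis motor gene Kif20a (-1.02) lay between. Kif20b had the smallest fall of the group and the widest gap between untreated libraries relative to its level, at 11.3 and 11.8 TPM with poly(I:C) and 25.0 and 18.5 TPM without (log2 fold change -0.84, SE 0.143, adjusted p = 0.00496). Its call was lost without PolyIC01 (adjusted p = 0.0509), and nearly all of its value stands on predicted transcripts.

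Spindle assembly and mitotic chromosomes. Tpx2, which activates Aurora A and seeds microtubules, was the most abundant of 3 spindle assembly genes and changed least of them. It was at 63.0 and 60.5 TPM with poly(I:C), against 88.5 and 85.5 TPM without, so 71.0% of its level was left (limma log2 fold change -0.49, SE 0.038, adjusted p 0.000169). Nusap1, a microtubule bundler gene, was at 22.1 and 23.3 TPM with poly(I:C) and 58.8 and 59.2 TPM without (log2 fold change -1.34, SE 0.045, adjusted p = 9.07e-06), and Hmmr, a spindle pole adaptor gene, lay between (-0.92). Top2a, which encodes the topoisomerase that disentangles sister chromatids, was at 125 and 119 TPM with poly(I:C) and 280.2 and 264 TPM without (log2 fold change -1.15, SE 0.042, adjusted p = 1.21e-05). Mki67, the gene of the proliferation marker Ki-67 that coats mitotic chromosomes, was at 72.1 and 68.3 TPM with poly(I:C) and 171 and 151 TPM without (log2 fold change -1.18, SE 0.067, adjusted p = 7.44e-05). Both sat near the median of the 48 genes, with no overlap between groups.

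Central spindle and cytokinesis. All 4 genes fell. Racgap1, which joins Kif23 in centralspindlin, was both the most abundant and the furthest down, at 52.0 and 51.8 TPM with poly(I:C) and 134 and 136 TPM without (chromosome 15, 99620496 to 99651656, log2 fold change -1.37, SE 0.030, limma adjusted p = 2.57e-06). The centralspindlin genes Racgap1 and Kif23 thus fell by nearly the same amount. Prc1, which bundles the central spindle microtubules (-1.14), and Ect2, the RhoA activator that centralspindlin recruits (-0.95), came next. Anln, a scaffold gene of the contractile ring, fell least, at 18.9 and 17.9 TPM with poly(I:C) and 30.9 and 28.3 TPM without (log2 fold change -0.65).

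**Figure D4:**
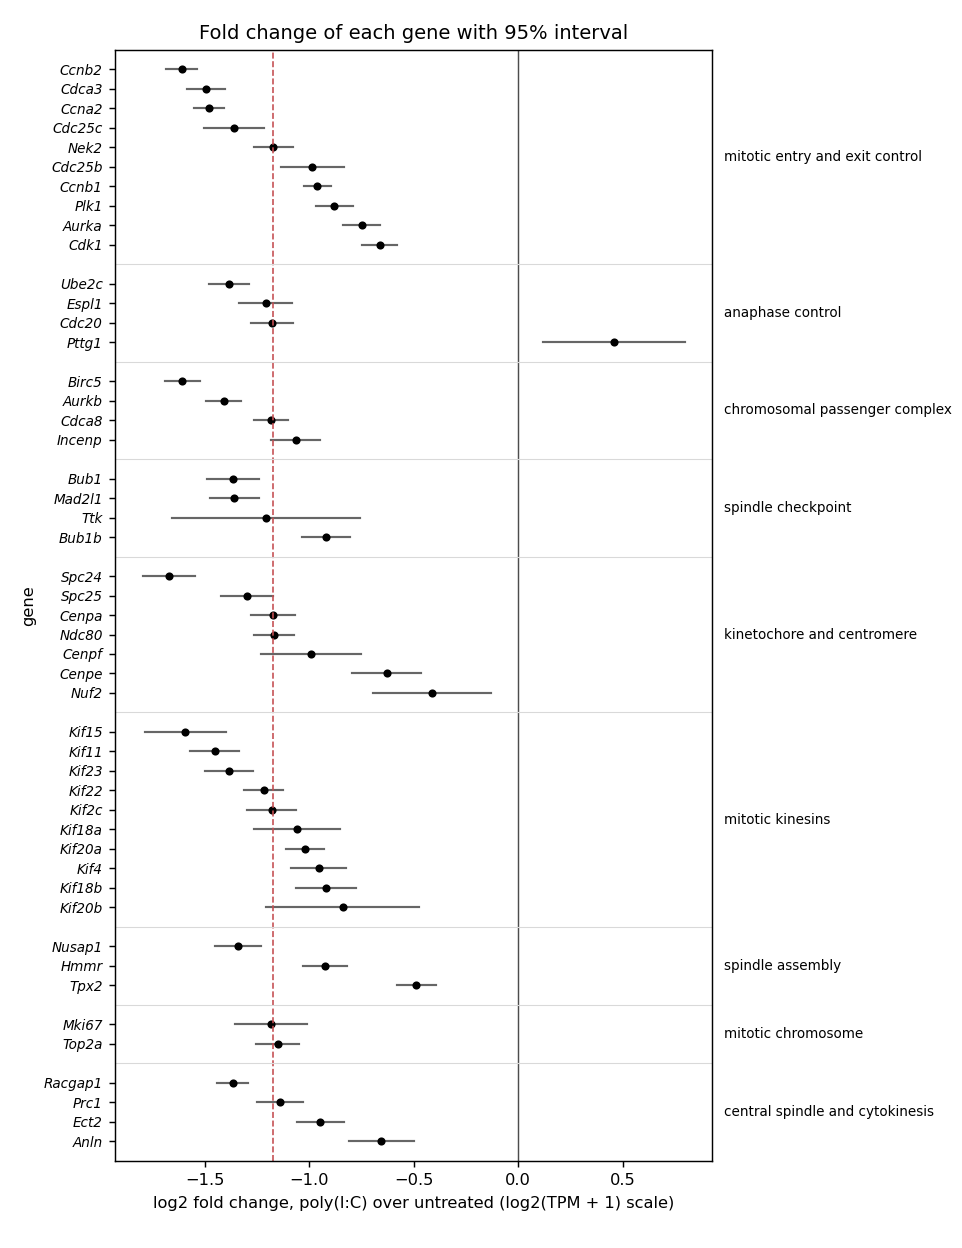
Log2 fold change of each of the 48 genes, poly(I:C) over untreated, on the log2(TPM + 1) scale, with its 95% interval from limma. The dashed red line is the median of -1.17, and Pttg1 at 0.46 is alone to the right of 0.

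The falls were seen in nearly all transcripts that averaged at least 1 TPM. The 48 genes have 142 transcripts in the table, of which 102 averaged at least 1 TPM. Of these 102, both poly(I:C) libraries were below both untreated libraries for 96 and above them for 2, both of Pttg1. The other 4 were the predicted Pttg1 transcript and 1 each of Aurka, Ect2 and Kif4. The same share over all transcripts was not computed. At the gene level 42.4% of all tested genes were lower in this sense and 38.9% higher. The Aurka call rests on a predicted transcript that carries 76.5% of the gene's value: from curated transcripts alone its log2 fold change was -0.45 (adjusted p = 0.355 in limma), and Anln also missed the threshold there (adjusted p = 0.0630). Exons of 6 members overlap those of a neighbour on the other strand that averaged at least 5 TPM (GENCODE M21), and reads may be shared if quantification ignored strand, a setting the sources used here do not give. The longest such overlap is 977 bases, between Kif20a and Cdc23, an APC/C subunit gene that fell too. The Ccnb1 pseudogene Ccnb1-ps was at a mean of 1.73 TPM with poly(I:C) and 3.45 TPM without, and the sharing of reads between them was not tested.

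The wider mitotic machinery moved less uniformly than the 48 genes. In 5 further lists of mitotic genes, 98 of 117 tested genes fell and 4 rose, while 15 missed the threshold (median log2 fold change -0.73). For this and the list counts below, 32.4% of all tested genes fell, 28.4% rose and 2.76% were lower by 2-fold or more. Of 32 other kinetochore and checkpoint genes 29 fell and 0 rose (median -0.90), led by Cenpn (-1.41), a centromere reader gene, and Ska1 (-1.36), whose product couples kinetochores to shrinking microtubules. Bub3, a checkpoint partner of Bub1, was at 129 and 134 TPM with poly(I:C) and 171 and 172 TPM without (-0.38). Of 40 other spindle, centrosome and cytokinesis genes 35 fell and 1 rose (median -0.94), led by Depdc1a (-1.67) and Sapcd2 (-1.51), and the centriole gene Sass6 was the 1 that rose (0.64). Of 17 condensin and cohesin genes 14 fell and 1 rose (median -0.66), led by Sgo1 (-1.36), the protector of centromeric cohesin, and the condensin gene Ncapg (-1.34).

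The genes of the APC/C itself had small changes. Of 16 APC/C core and partner genes 11 fell and 0 rose, but the median was -0.24 and none fell 2-fold. With 16 genes and a share of 2.76% among all tested genes, the lack of a 2-fold fall says little. The largest falls were in Cdc23 (-0.84) and in the activator gene Fzr1 (-0.48). Of 12 genes of mitotic entry brakes and switches 9 fell and 2 rose (median -0.39), with the largest falls in Bora (-1.60), a PLK1 activator gene, and Fbxo5 (-1.18), an APC/C inhibitor gene. Wee1, a kinase gene that restrains CDK1, was at 11.5 and 11.3 TPM with poly(I:C) and 19.9 and 17.5 TPM without (-0.67). Wee1 thus fell as the cyclin genes did, but by less than Ccnb1 (-0.96), Ccna2 (-1.48) and Ccnb2 (-1.61). Pkmyt1, of the same list, fell by less still (-0.27). Ensa rose (0.42), as did Wapl (0.21) among the cohesin genes. Gtse1 was the other gene above the threshold (0.15, limma adjusted p = 0.0369), but its call was lost under 6 of 13 alternatives, among them without PolyIC01 (adjusted p = 0.144), without PolyIC02 (0.0721) and without NT02 (0.134). These 3 were named after their values were seen.

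Among 15 genes of MuvB, DREAM, their activators and NF-Y, 11 fell and 0 rose (median -0.30). Of the NF-Y genes, Nfyb fell (-0.51), while Nfya (0.04) and Nfyc (0.06) did not pass. The 2 of the 15 that fell at least 2-fold were the genes of the activators FOXM1 and B-MYB. Foxm1, the forkhead factor of G2 and M phase genes, was at 24.4 and 23.9 TPM with poly(I:C) and 69.0 and 61.6 TPM without (log2 fold change -1.40, SE 0.062), and Mybl2, which encodes B-MYB, was at 23.1 and 22.8 TPM with poly(I:C) and 53.6 and 52.2 TPM without (-1.17). The median of the 48 genes was -1.17. Of the 5 MuvB core genes, whose products are shared by the repressive and activating forms, 3 fell: Lin9 (-0.63), Rbbp4 (-0.25) and Lin52 (-0.21). Lin54 (-0.14, adjusted p = 0.0576 in limma) and Lin37 (0.00, adjusted p = 0.985) did not pass. The Lin9 value turned to 0.36 (adjusted p = 0.0966) with curated transcripts alone, and the Lin52 call was lost without PolyIC01 (adjusted p = 0.112), without PolyIC02 (0.0572) and without NT01 (0.0538). Lin54 passed without NT02 (adjusted p = 0.0385).

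Genes of the phases before mitosis did not share the depth of the fall. Of 37 G1/S and DNA replication genes 27 fell and 6 rose (median -0.37), and 3 fell at least 2-fold. Rrm2, whose product helps to make deoxynucleotides, fell most (215 and 213 TPM with poly(I:C), 498 and 494 TPM without, -1.21), followed by the thymidine kinase gene Tk1 (-1.15). The helicase gene Mcm2 was at 147 and 147 TPM with poly(I:C) and 165 and 166 TPM without (-0.17), and the polymerase clamp gene Pcna was at 699 and 711 TPM with poly(I:C) and 658 and 679 TPM without (0.08, adjusted p = 0.0512 in limma). Ccne1, the cyclin of S phase entry, rose (57.5 and 59.2 TPM with poly(I:C), 41.8 and 43.2 TPM without, 0.45). Of 7 G1 cyclin and kinase genes 4 rose and 2 fell, with Ccnd1 (0.91), Ccnd2 (0.18) and Ccnd3 (0.14) higher and Myc lower (-1.25). The Ccnd2 and Ccnd3 calls were lost with curated transcripts alone (adjusted p = 0.839 and 0.0955). Of 15 CDK inhibitor and p53 target genes 10 rose and 3 fell (median 0.56). The CDK inhibitor genes were divided. The 3 that fell were all of this kind: Cdkn2c (-1.08), Cdkn2d (-0.45) and Cdkn1c (-0.34). Cdkn1a, Cdkn1b, Cdkn2a (0.24) and Cdkn2b (0.56) rose. Cdkn1a, which encodes the CDK inhibitor p21, was at 631 and 627 TPM with poly(I:C), against 60.4 and 63.6 TPM without (3.32), Trp53inp1 rose by 1.73 and Cdkn1b by 0.74. The lists overlap in function, and the differences between lists were not tested.

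**Figure D5:**
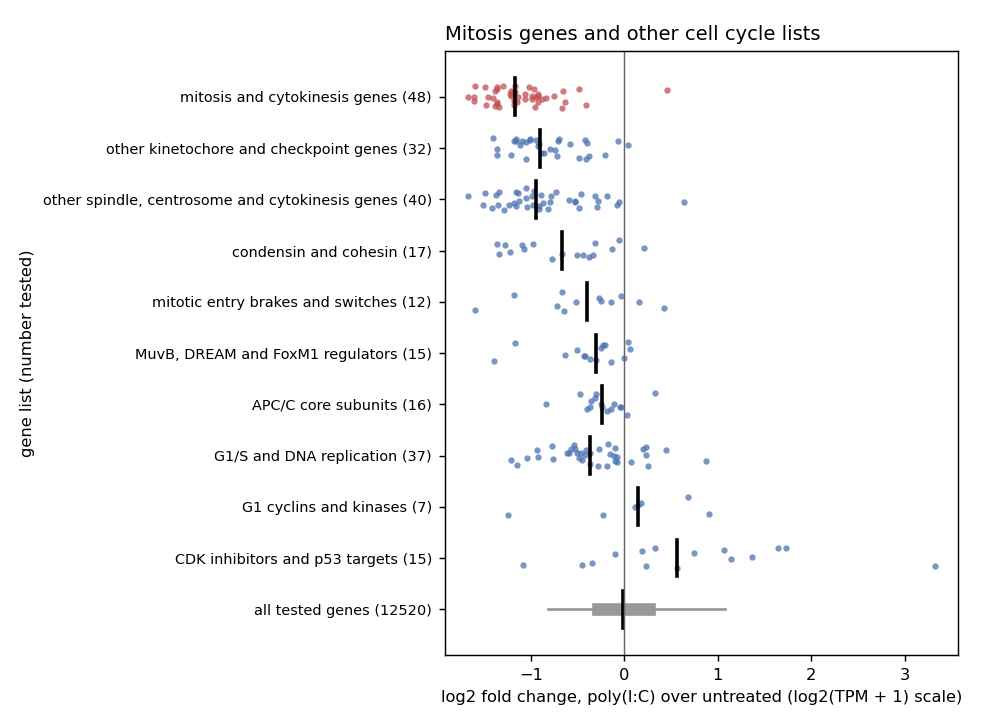
Log2 fold change, poly(I:C) over untreated, of each tested gene (points) in the 48 mitosis and cytokinesis genes (red, top) and in 9 other cell cycle lists (blue), with the median of each list as a black bar. The bottom row shows all 12520 tested genes by the range between their quartiles (thick grey), their 5% to 95% range (thin grey) and their median.

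Outside the 48 genes, the tested genes whose profile over the 4 libraries lay nearest to the mean profile of the members, by the Euclidean distance of centred log2(TPM + 1) values, were Cdca5 (0.0217), Kyat3 (0.0219), Dhrs1 (0.0264), Lyz1 (0.0346) and Shcbp1 (0.0365). Cdca5 encodes sororin, which stabilises cohesin, and was at 39.8 and 40.4 TPM with poly(I:C) and 87.9 and 86.0 TPM without. Kyat3 and Dhrs1 encode metabolic enzymes and Lyz1 a lysozyme. With 4 libraries in 2 groups, such likeness amounts to little more than a fall of the same size on this scale. The scale understates changes of low genes such as Kyat3. Kyat3 was at 1.04 and 1.01 TPM with poly(I:C) and 3.42 and 3.23 TPM without, 30.8% of untreated.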

How the data were processed

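Polyadenylated RNA was sequenced from stranded libraries, per the labels' protocols. Tools listed in the submitters' processing notes are kallisto 0.42.4 and bcl2fastq 2.20.0.422, with the build GRCm38. Although the deposited table carries FPKM in its name, each column used totals 1000000, which fits TPM, and the authors' values were treated as that. Depth cannot be read from TPM, and no interval for counting error is given. The header names 5 of 6 value columns, so 2 were left out and replicate numbers are not settled.

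Of 107384 transcripts 86722 (80.8%) were matched to gene symbols through RefSeq (GRCm38.p6) and held 91.8% to 92.2% of each library's TPM. They were summed per symbol. The 12520 genes whose mean reached 0.5 TPM were compared on log2(TPM + 1), which understates changes of low genes, with limma 3.58.1 in R 4.3.3 (trend, robust), adjusted by Benjamini-Hochberg over all tested genes. Simulated data were used to check this fit. Plots came from matplotlib 3.10.9 and tables from pandas 2.3.3 under Python 3.11.15.

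The members and lists were chosen with earlier results of these data known. Named in full are, per role, the most abundant and the most changed member and any that went against the rest, and per list up to 2 genes with the largest changes and a few regulators; others were chosen after their values were seen. Alternatives changed the pseudocount, filter, moderation, scaling, transcripts and libraries. Promoter windows are RefSeq's (GRCm38.p6); the last 30 bases of 38 of the 43 windows of members were found in a GENCODE transcript of the gene on the same strand and 0 on the reverse.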

Additional observations from a re-analysis of the deposited data

How the results depend on the processing

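The count of mitosis and cytokinesis genes that fell stayed between 44 and 47 under every alternative run, with the lowest count from curated transcripts alone, where Kif20b could not be tested. Pttg1 was the 1 member that rose, except without NT01 or without NT02, where 0 rose (limma), so that leaving out 1 library gave 0 to 1. Its unadjusted direction was upward in every alternative run. With each library left out in turn, 46 to 47 members fell, the median log2 fold change was -1.19 to -1.14 and the ratio of summed TPM, poly(I:C) over untreated, 0.449 to 0.460. Centring libraries on their median log2 ratio gave a median of -1.13 and a ratio of 0.469, and curated transcripts alone a ratio of 0.427, beside -1.17 and 0.454 as reported. With centring 29.0% of all tested genes were lower and 33.4% higher, beside 32.4% and 28.4% as reported. Without the filter 17.0% of 22324 genes were lower and 16.4% higher. No member changed direction, and 615 of 622 member results under 13 alternatives kept their side of the threshold; the cause of the 7 losses, in Aurka, Anln, Pttg1, Nuf2 and Kif20b, was not tested beyond the libraries and transcripts named. With the replicate block, using the numbers in the column headings, 47 fell; the deviations of same-numbered libraries had a correlation of 0.02 across genes, so the numbers do not show pairing. Among 49 other named genes followed one by one, calls were lost for Gtse1 under 6 alternatives, Lin52 under 3 and Cd3d under 2. Those of Ccnd2 and Ccnd3 were lost under 1 each, and Pcna and Lin54 passed under 3 each. Calls of type 1 conventional dendritic cell markers also moved. As reported 6 rose, with quantile normalization 4, and without trend and robust moderation 3. Irf8 lay at the threshold (adjusted p = 0.0497 in limma). Lin9 turned to 0.36 with curated transcripts alone, and Lin37, which did not pass, was between -0.051 and 0.054 with 1 library left out.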
